A study of Homo sapiens and Mus musculus with 12 samples.

Results

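Basal translation efficiency (TE) is described here for HEK293 cells that expressed a scrambled control shRNA (sh-Scram). TE is the ribosome density of a transcript over its mRNA level, and it was computed for transcripts that were listed in all 5 sh-Scram libraries, 3 from Ribo-seq and 2 from RNA-seq. These were 8821 transcripts, or 70.3% of the 12548 listed in at least 1 of the 5 libraries. In the whole series, 24484 human and mouse transcripts were listed. TE was taken as mean log2 RPKM in Ribo-seq minus mean log2 RPKM in RNA-seq. Because each scale is relative to its own library total, TE is given relative to the median transcript, which sits at 0.

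The series asks how m6A in the coding region (CDS) bears on translation, and these 5 libraries are the control libraries of its human cells. HEK293 is an established line of human embryonic kidney cells, and the library labels name its derivative 293T. All 5 libraries came from cells carrying shScram, introduced with a lentivirus and, by the study's methods, selected with puromycin, so that no uninfected cells were compared. Ribo-seq replicates 1, 2 and 3 and RNA-seq replicates 1 and 2 are numbered in the labels. The labels do not say that replicates were separate cultures, so the spread between them may be technical. Cells were lysed in the presence of cycloheximide, which stalls ribosomes on mRNA. None of the 8821 transcript identifiers could be paired with a gene name, so neither gene groups nor markers of kidney cells were examined.

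Ribosomes protect the stretch of mRNA they occupy from nuclease digestion, and Ribo-seq sequences these protected footprints. Footprints per length of CDS give ribosome density, which rises with the number of mRNA copies and with the number of ribosomes on each copy. Dividing by mRNA level leaves the ribosome load per mRNA. That load depends on how often ribosomes start and how fast they move along the CDS, and a ratio of densities does not separate these.

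The Ribo-seq libraries held 1703301, 2971265 and 2151626 reads and the RNA-seq libraries 541216 and 610615 reads, as recovered from the steps of single reads in the RPKM values. A listing limit of 5 reads was assumed, and recovered lengths were raised where needed to meet it. Before this repair, 0 of 8361 transcripts found in all HEK293 Ribo-seq libraries had fewer than 5 reads in a sh-Scram library. Of 8685 found in all HEK293 RNA-seq libraries, 33 and 28 had fewer in RNA-seq replicates 1 and 2, the lowest having 2. At a length of 1 kilobase the limit of 5 reads was an RPKM of 1.68 to 2.94 in Ribo-seq and 8.19 to 9.24 in RNA-seq. The median transcript among the 8821 had 64 to 105 reads in a Ribo-seq library but 27 and 30 reads in the RNA-seq libraries. Fewer than 20 reads were behind 36.7% and 33.2% of the RNA-seq values, against 5.97% to 13.0% of the Ribo-seq values.

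The listing limit removed transcripts mostly on the RNA-seq side. Of transcripts listed in all 3 Ribo-seq libraries, 84.0% were also in both RNA-seq libraries, and 689 were in neither. In this group of 689, 102 had at least 20 reads in every Ribo-seq library. The reverse was rare, since 60 transcripts were in both RNA-seq libraries and in no Ribo-seq library. Of these, 11 had at least 20 reads in both RNA-seq libraries, and the highest had a mean of 2269 RPKM. No TE can be given for either group, so the extremes of TE lie partly outside the 8821.

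Basal TE spread over more than an order of magnitude. The SD of log2 TE over the 8821 transcripts was 1.38, and the 5th and 95th percentiles were -2.09 and 2.36, a 21.8-fold range. The middle 50% of transcripts covered a 3.53-fold range. Ribosome density had an SD of 2.23 and a 147-fold range between the same percentiles, and mRNA level an SD of 1.68 and a 41.1-fold range. TE thus varied less than either of the densities it is made from.

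Most transcripts were near the median. Within 2-fold of it were 4785 transcripts (54.2%), while 2037 were at least 2-fold above and 1999 at least 2-fold below. Far from the median the upper side was fuller, with 202 transcripts at least 8-fold above and 75 at least 8-fold below. The single most extreme values were on the lower side, and log2 TE ran from -10.37 to 6.55.

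**Figure D1:**
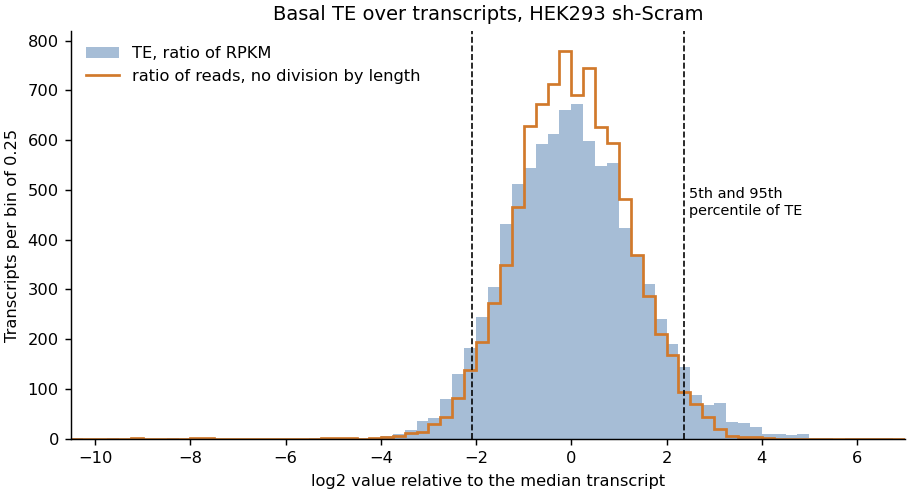
Number of transcripts per bin of 0.25 (y axis) by log2 TE relative to the median transcript (x axis, filled) and by the log2 ratio of reads without division by length (line). Dashed lines mark the 5th and 95th percentiles of TE, -2.09 and 2.36, and the ratio of reads is narrower, with an SD of 1.17 against 1.38.

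Single transcripts were tested against the median transcript with limma (two-sided, Benjamini-Hochberg adjusted p under 0.05 over all 8821). TE was above the median in 1814 transcripts, or 20.6% of those tested, and below it in 1631, or 18.5%. At an unadjusted p under 0.05 the counts were 2261 and 2118. Of the transcripts called, 1778 and 1614 were also at least 2-fold away. The median standard error of a log2 TE was 0.40, the smallest value called was 0.92 away from the median, and the largest value not called was 3.30 away. A transcript within 2-fold of the median was therefore rarely told apart from it by 3 and 2 libraries.

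The ends of the distribution are shown by the 2 highest and 2 lowest values among 1993 called transcripts with at least 20 reads in every library. They were chosen by TE in these same libraries, so their adjusted p and the gaps between their values describe them and are no separate evidence. The highest was ENST00000274242. Its ribosome density was 7447, 4926 and 9057 RPKM in Ribo-seq replicates 1 to 3, and its mRNA level was 57.9 and 42.4 RPKM in the RNA-seq replicates. Every Ribo-seq value was far above both RNA-seq values. Relative log2 TE was 6.47 (SE 0.43, limma adjusted p = 3.44e-05). The recovered lengths were 294 nucleotides (nt) for its CDS and 7686 nt for the transcript, so that footprints were divided by a short length and RNA-seq reads by a long one. The reads themselves were 3729, 4303 and 5729 in Ribo-seq and 241 and 199 in RNA-seq. With no division by length, its log2 ratio of reads relative to the median transcript was 2.82.

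The second highest, ENST00000396020, had the same shape, with a CDS of 204 nt in a transcript of 7062 nt. Its ribosome density was 7296, 2224 and 7161 RPKM, lowest in replicate 2, and its mRNA level was 46.8 and 39.7 RPKM. Relative log2 TE was 6.17 (SE 0.54, limma adjusted p = 0.000131), against 2.11 for the ratio of reads.

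The lowest was ENST00000525239, with 69.5, 48.5 and 48.2 RPKM in Ribo-seq and 22784 and 6429 RPKM in RNA-seq. Its RNA-seq values were the less alike, but both were far above all 3 Ribo-seq values. Relative log2 TE was -8.45 (SE 0.52, limma adjusted p = 2.73e-05). Its CDS was 1158 nt in a transcript of 1736 nt, and division by length mattered little here, since the ratio of reads gave -7.98. The second lowest, ENST00000268489, had a CDS of 11112 nt in a transcript of 16064 nt. Its ribosome density was 2.01, 2.51 and 3.72 RPKM and its mRNA level 81.5 and 51.7 RPKM. Relative log2 TE was -5.26 (SE 0.41, limma adjusted p = 7.21e-05), and the ratio of reads gave -4.74.

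Transcripts at the ends, ranked by TE from these same libraries, differed in ribosome density far more than in mRNA level. TE is made from both quantities, so a gap between the ends is built into the ranking and is no separate result. In the highest decile of TE the median ribosome density was 159.5 RPKM and in the lowest decile 5.78 RPKM, while median mRNA levels were 17.5 and 16.9 RPKM. The same 2 deciles had median CDS lengths of 607.5 and 3404 nt. In the 100 highest transcripts the median CDS was 423 nt, and in the 100 lowest 5720 nt. In the highest decile 49.1% of transcripts had fewer than 20 reads in an RNA-seq library, close to the 44.1% of all 8821. In the lowest decile 37.1% had fewer than 20 reads in a Ribo-seq library, against 15.3% of all.

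To see how well TE was measured, it was computed from pairs of 1 Ribo-seq and 1 RNA-seq library and compared between pairs that share no library. There are 6 such comparisons. Across the 8821 transcripts Pearson's r was 0.635 to 0.818 and the Spearman correlation 0.619 to 0.808. These are correlations across transcripts, which are not independent replicates, and both pairs share the length of each transcript. The SD of the difference between pairs was 0.88 to 1.32 on the log2 scale against an SD of 1.38 for TE over transcripts. The correlation was lowest when Ribo-seq replicate 2 was set over RNA-seq replicate 1.

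Of the 882 transcripts in the highest decile of one pair, 45.7% to 62.9% were in the highest decile of the other, and for the lowest decile 37.1% to 54.8%. Between 0 and 12 transcripts moved from one extreme decile to the opposite one. On the same side of the median were 72.7% to 81.5% of transcripts. Deciles were then formed in replicate 1 and followed into replicate 2. The medians came closer to 0 in replicate 2, from 2.39 to 2.32 in the highest decile and from -2.21 to -1.88 in the lowest.

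**Figure D2:**
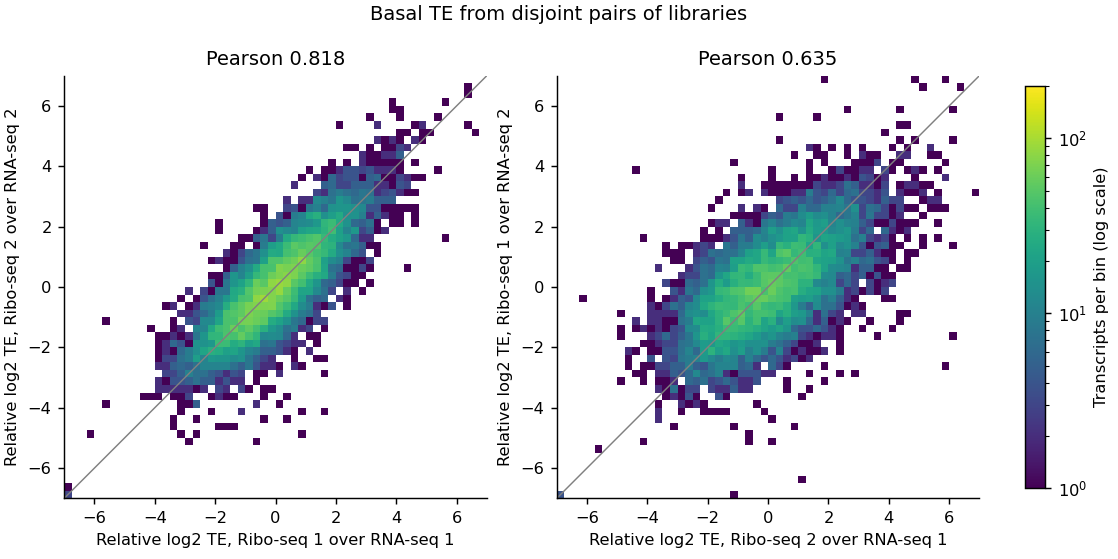
Relative log2 TE from one pair of libraries (x axis) against that from a pair sharing no library (y axis), coloured by the number of transcripts per bin of 0.25 on a log scale, with values beyond 7 drawn in the outermost bins and the line of equality in gray. The left panel sets replicate 1 against replicate 2 (Pearson 0.818) and the right panel shows the widest cloud (Pearson 0.635).

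Replicates differed in both kinds of library, and the disagreement also depended on which libraries were set over each other. Pearson's r was 0.635 and 0.653 in the comparisons with Ribo-seq replicate 2 over RNA-seq replicate 1. For replicate 1 against replicate 2 it was 0.818. How much each source contributed was not tested. Ribo-seq replicates 1 and 3 had a Spearman correlation of 0.967 across the 8821 transcripts, while replicate 2 reached 0.941 and 0.944 with them. The SD of the log2 difference was 0.53 between replicates 1 and 3 and 0.74 and 0.72 for the comparisons with replicate 2. The RNA-seq replicates correlated at 0.862 with an SD of difference of 0.84, where counting reads alone would give an SD of 0.45. SDs do not add up, so 0.45 is not a share of 0.84. Counting error made up 3.46% of the variance of TE from all 5 libraries. The covariance of TE between disjoint pairs averaged 1.64, or 86.6% of the variance of 1.89.

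The same comparison was made within quartiles of mean reads. In the quartile of transcripts with the fewest reads Pearson's r was 0.530 to 0.662, and in the quartile with the most reads 0.623 to 0.872. The SD of TE itself rose from 1.08 to 1.53 between these quartiles, which raises r at a given error. The SD of the difference between pairs was 1.00 to 1.21 in the quartile with the fewest reads and 0.80 to 1.48 in the one with the most, so that both the smallest and the largest disagreement were in the deepest quartile.

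TE was nearly flat against mRNA level. Since TE holds mRNA level in its denominator, TE from one RNA-seq library was set against the level in the other. For single Ribo-seq libraries the Spearman correlation across the 8821 transcripts was 0.0528 to 0.164, and with the same RNA-seq library on both axes -0.0634 to 0.0381. For the mean of the 3 Ribo-seq libraries the values with separate RNA-seq libraries were 0.0968 and 0.138. The slope of log2 ribosome density on log2 mRNA level was 0.953 to 1.04, and 1.06 to 1.16 once corrected for the noise in the level. Ribosome density therefore rose nearly in proportion to mRNA.

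The highest decile of mRNA level stood apart with both RNA-seq libraries. In deciles of mRNA level in RNA-seq replicate 1, median TE stayed between -0.09 and 0.02 from the second to the ninth decile. It was -0.25 in the lowest decile and 0.56 in the highest. With the level from replicate 2, the second to the ninth decile ran from -0.21 to 0.14, and the lowest and highest had -0.25 and 0.68. When the same library supplied both quantities, the lowest decile read 0.20 and 0.23. The sign at low mRNA levels thus depended on whether TE and the level came from the same RNA-seq library. Within every decile the spread was far wider than these shifts, with an SD of 1.30 to 1.59.

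**Figure D3:**
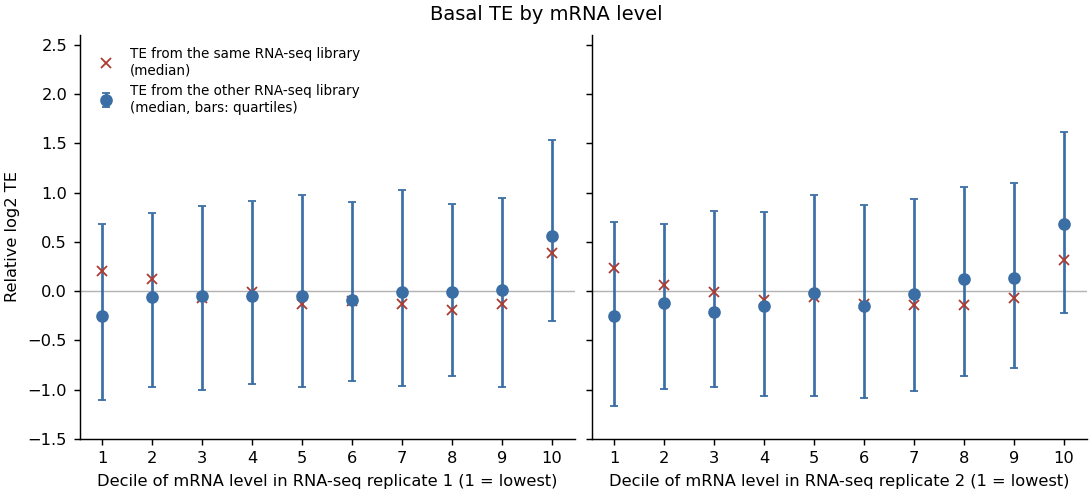
Relative log2 TE (y axis) by deciles of mRNA level in RNA-seq replicate 1 (left) and 2 (right), with points and bars for the median and quartiles when TE came from the other RNA-seq library and crosses for the median when it came from the same one. The highest decile has a median of 0.56 and 0.68, the second to the ninth lie between -0.21 and 0.14, and in the lowest decile the 2 ways of computing TE differ in sign.

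Abundant mRNAs also had short coding regions. Median CDS length was 2295 nt in the lowest and 868.5 nt in the highest decile of mRNA level in replicate 1. After the linear trend of TE on log2 CDS length was taken out, an alternative chosen after seeing the data, the correlations of 0.0968 and 0.138 became -0.166 and -0.0986. The weak positive relation of TE with mRNA level thus turned negative among transcripts compared at like CDS length.

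Of mRNA level, CDS length and length outside the CDS, CDS length had the strongest correlation with basal TE. The step that 1 read makes in the RPKM of a transcript gives the length it was divided by, which was the CDS in Ribo-seq and the transcript in RNA-seq. The Spearman correlation of TE with CDS length was -0.647 across the 8821 transcripts, and -0.648 and -0.573 in replicates 1 and 2 taken alone. Median TE fell in every step from 1.62 in the shortest decile, with a CDS of up to 570 nt, to -1.49 in the longest, from 3744 nt. Across transcripts, log2 TE had a slope of -0.84 per doubling of CDS length, and the straight line took up 43.2% of the variance. Without it, the SD of log2 TE was 1.04 in place of 1.38.

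Both densities fell with CDS length, but ribosome density fell faster. Per doubling of the CDS, log2 ribosome density changed by -1.41 and log2 mRNA level by -0.57. From the shortest to the longest decile, median ribosome density went from 202.0 to 5.09 RPKM and median mRNA level from 40.2 to 8.92 RPKM. The relation was as close within terciles of mRNA level, where the correlation was -0.653, -0.664 and -0.688 from low to high, and within terciles of the length outside the CDS, where it was -0.687, -0.670 and -0.655.

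The share of calls followed the same order. Above the median were 62.1% of the shortest decile and 0.113% of the longest, which was 1 transcript. Below it were 1.36% of the shortest and 61.2% of the longest. The Spearman correlation was -0.703 over the 4731 transcripts with at least 20 reads in every library and -0.798 over the 716 with at least 100. Reads depend on length as well as on RPKM, so these filters also select on length. With a filter on RPKM, at least 10 in every library, the correlation was -0.637 over 4419 transcripts, against -0.647 over all. The listing limit left out somewhat more short than long coding regions on the RNA-seq side. Of transcripts listed in both RNA-seq libraries and with a recovered CDS length, 97.4% to 98.3% were in all 5 in each quintile of that length. Another 55 in both RNA-seq libraries had no recovered CDS length and so fell in no quintile, and 0 of them were in all 5. Of transcripts listed in all 3 Ribo-seq libraries, 81.5% of the shortest and 87.8% of the longest quintile were in all 5.

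CDS length is also the divisor of ribosome density. The ratio of footprint reads to RNA-seq reads, which uses no length and was added after seeing the data, still fell with CDS length, with a Spearman correlation of -0.426. Its median was 1.11 in the shortest and -0.85 in the longest decile of CDS length. The ratio of reads also fell with the length outside the CDS (Spearman -0.350), where RNA-seq reads can come from but footprints were not counted. TE itself rose slightly with that length (Spearman 0.125). Its median was 0.58 in the decile with the longest stretch outside the CDS and lay between -0.22 and 0.03 in the first 8 deciles. The ratio of reads and TE ranked transcripts alike only in part, with a Spearman correlation of 0.804 between them. Which of the scales is nearer to the ribosome load per mRNA was not tested.

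**Figure D4:**
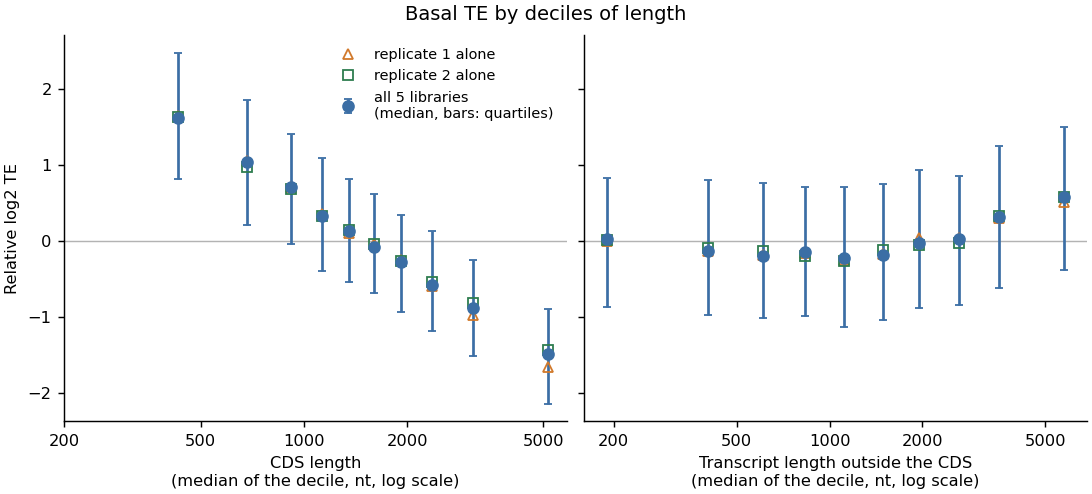
Relative log2 TE (y axis) against the median length of each decile of transcripts (x axis, nucleotides, log scale) for CDS length (left) and transcript length outside the CDS (right), with points and bars for the median and quartiles over all 5 libraries and open symbols for replicates 1 and 2 alone. Medians fall from 1.62 to -1.49 along CDS length and stay between -0.22 and 0.58 along the length outside it.

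The study set m6A in the CDS against TE, so the m6A groups it assigned to HEK293 transcripts were laid over basal TE. It reports a negative correlation of CDS methylation with ribosome occupancy in HEK293. For its knockdown comparisons, however, it describes non-methylated controls chosen for similar ribosome density, and m6A+ and m6A− groups of similar basal TE. The list at hand is shortened, and 1490 of the 8821 transcripts (16.9%) had a label, 503 of them m6A+ and 987 m6A−. No test was run on it. Labelled transcripts were not a level sample of the whole, with a median relative log2 TE of 0.25 against -0.05 in those without a label.

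Across all labelled transcripts, m6A+ ones had the lower TE. The median was -0.41 in m6A+ and 0.59 in m6A−, a difference of -0.999, and the 6 single pairs of libraries gave -1.08 to -0.79. Median ribosome density was 12.6 RPKM in m6A+ and 53.5 RPKM in m6A−, so the labelled groups were alike in neither measure. Why this departs from the matching that the study describes was not tested. Called above the median transcript were 10.9% of m6A+ and 33.4% of m6A−, and below it 24.1% and 10.2%, against 20.6% and 18.5% of all transcripts. The groups also differed in length, with a median CDS of 2235 nt in m6A+ and 1014 nt in m6A−. The share of m6A+ among labelled transcripts went from 5.76% in the shortest quintile of CDS length to 71.0% in the longest.

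Among transcripts of like CDS length, most of that difference was no longer present. Within quintiles of CDS length the m6A+ median minus the m6A− median was -0.09, 0.19, 0.11, 0.37 and -0.10 from shortest to longest. Weighted by the number of m6A+ transcripts the difference was 0.10, and the single pairs of libraries ran from -0.07 to 0.17, on both sides of 0. With 20 classes of CDS length in place of 5 it was 0.15 (-0.01 to 0.23). Classes of other properties left the difference in place, at -1.12 within quintiles of the length outside the CDS and -0.86 within quintiles of mRNA level. On the ratio of reads, the difference was -0.83 over all labelled transcripts and -0.22 within quintiles of CDS length. The sign within CDS classes therefore depended on whether lengths were divided out, while on both scales the difference was smaller within classes than without them.

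**Figure D5:**
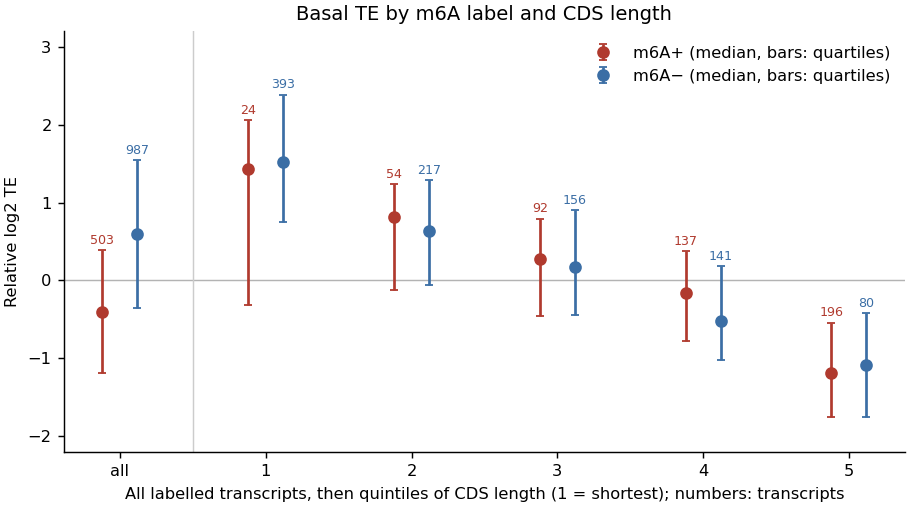
Relative log2 TE (y axis) of m6A+ (red) and m6A− (blue) transcripts, for all labelled transcripts and within quintiles of CDS length (x axis), with points and bars for the median and quartiles and the number of transcripts above each bar. The m6A+ median minus the m6A− median is -0.999 over all labelled transcripts and between -0.10 and 0.37 within a quintile.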

How the data were processed

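The deposited values are RPKM, one file per library. Before depositing them, the authors trimmed adapters, left out reads shorter than 15 nt, aligned the remainder by Bowtie against the longest-CDS transcript of each gene and discarded ambiguous reads. The processing notes of the submitters name GRCh38 for the human build, and cutadapt, without versions. Ribo-seq used fragments of 25 to 35 nt and RNA-seq fragments of 40 to 60 nt of total RNA. Duplicate removal is not given in the sources used here, so errors from read numbers are those of counting alone.

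Library totals, lengths and reads were recovered as the whole numbers behind the steps of single reads, within 0.01 of a read. For lengths and their repair, the values of the sh-YTHDC2 libraries were used too, but they entered no TE, ribosome density or mRNA level. Recovered CDS lengths were whole codons in 97.5% of transcripts before repair. A length that gave fewer than 5 reads in a library, a CDS that was not whole codons or a transcript shorter than its CDS was raised to the smallest multiple free of these faults, which changed 674 of 12581 CDS and 652 of 11235 transcript lengths. Length outside the CDS is the recovered transcript length minus the CDS length. The ratio of reads is mean log2 reads in Ribo-seq minus that in RNA-seq.

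log2 RPKM with no pseudocount was fitted with limma 3.58.1 in R 4.3.3, with library type as the only term and an intensity trend. The difference between types, less its median over transcripts, was tested two-sided with Benjamini-Hochberg adjustment over 8821 transcripts. The fit was tested on simulated reads for the 8821 transcripts, 200 of them with a log2 TE of 2 above or below the rest. With negative binomial sizes taken from the replicates (11.4 for Ribo-seq, 8.23 for RNA-seq) it recovered 54% of the 200, all with the right sign, and made 4 false calls. A size of 15 in every library gave 66.5% and a size of 5 gave 10.5%. With no transcript apart, the count of calls was 0 at each size. The simulated recovery therefore depends on the dispersion assumed. All other simulated transcripts shared the same TE, while real log2 TE had an SD of 1.38, with 1814 calls above and 1631 below the median. Within each library they also shared the same expected level, so the intensity trend was not tried over a real range of levels. The adjusted threshold depends on how many transcripts are apart, so these shares do not give the recovery in the real data. There the largest value not called was 3.30 away, so a transcript that was not called can still be 4-fold from the median. Other values are descriptions from Python 3.11.15, numpy 2.4.6, pandas 2.3.3 and scipy 1.17.1, with figures from matplotlib 3.10.9. Correlations across transcripts carry no p. The corrected slope on mRNA level is the covariance of Ribo-seq with one RNA-seq library over the covariance between both RNA-seq libraries.

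Named transcripts are the 2 highest and 2 lowest in TE among those past the threshold with at least 20 reads in every library, since identifiers are not paired with gene names in the files or in the tables used here. The m6A labels came from source data supplied with the study, of which 1998 human rows were used, without their values. Columns of per-sample values left unused numbered 0, and the files hold no comparisons by the authors. The members and lists were chosen with earlier results of these data known. Alternatives were pseudocounts, filters on RPKM and reads, absent values left out, centring of libraries, other limma settings, a replicate block and leaving out each library.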

Additional observations from a re-analysis of the deposited data

How the results depend on the processing

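The count of transcripts above and below the median (1814 and 1631) moved by over 1.5 times under 2 settings that also test fewer transcripts. It was 886 and 780 of 4419 with an RPKM of at least 10 in every library, and 1148 and 1064 of 4731 with at least 20 reads in every library. Leaving out 1 library gave 1291 to 1621 above and 1123 to 1377 below. In every setting 0 transcripts were called on the opposite side. Only transcripts called in both fits were counted, and the fits share libraries, so a change of side was hardly possible. The SD of log2 TE (1.38) was 1.29 with a pseudocount of 1, 1.24 with an RPKM of at least 10, 1.17 on the ratio of reads, and 1.37 to 1.45 without 1 library. The Spearman correlation of TE with mRNA level (mean 0.118) was 0.0556 with an RPKM of at least 10, 0.198 with at least 20 reads, 0.0948 to 0.130 without 1 Ribo-seq library, and -0.132 with the CDS trend taken out. Mean Pearson's r between disjoint pairs (0.743) was 0.727 to 0.768 without 1 Ribo-seq library. The Spearman correlation with CDS length (-0.647) was -0.637 with an RPKM of at least 10, -0.703 with at least 20 reads and -0.426 on the ratio of reads. The m6A difference (-0.999) was -0.83 on the ratio of reads, and within quintiles of CDS length (0.0975) it turned to -0.223. The cause of these moves was not tested. The 4 named transcripts kept their side and stayed called under all planned settings that tested them, with limma adjusted p up to 0.0014. Since they were chosen as the extremes of these same libraries, this could hardly have come out otherwise and is no separate support. Their ratios of reads were 2.82, 2.11, -7.98 and -4.74.

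The replicate numbers of the labels do not say what they stand for. Deviations from the group mean correlated at 0.292 between the Ribo-seq and RNA-seq libraries numbered 1 and at 0.402 between those numbered 2. Ribo-seq replicate 3, which has no partner, correlated at 0.230 with RNA-seq replicate 1. Deviations cancel within each kind of library, so these values are bound to each other and cannot decide whether the replicates are paired. The replicate block left out Ribo-seq replicate 3, which has no partner, and with it 2126 transcripts were above and 1912 below. Without the block, the fit lacking Ribo-seq replicate 3 called 1291 above and 1123 below. For 44.1% of transcripts, fewer than 20 reads were behind a value in an RNA-seq library.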
